A study of Mus musculus with 12 samples.

Results

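Long-chain fatty acids enter hepatocytes through membrane transport proteins, are carried in the cytosol by fatty acid binding proteins, and are joined to coenzyme A by acyl-CoA synthetases before they can be oxidised or esterified into triglyceride. The 10 genes followed here belong to this route: the uptake proteins Cd36 and Slc27a2, the binding proteins Fabp1, Fabp2, Fabp4 and Fabp5, and the long-chain synthetases Acsl1, Acsl3, Acsl4 and Acsl5. They were picked by gene symbol, each symbol matched 1 feature, and all 10 were present among the 22471 features in the deposited tables. Several of them are known targets of the PPARs, nuclear receptors that bind fatty acids, and Fabp1 is a classical abundant protein of the liver.

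The cells were cultured primary hepatocytes prepared from male C57BL/6J mice aged 6 weeks, and treatments lasted 16 h. Control cultures (labelled Con) received neither oleic acid nor drug. The others received 0.2 mM oleic acid bound to albumin (OA, labelled ConOA), 15 µM of the uric acid-lowering drug benzbromarone (BBR), or both (BBR+OA, labelled BBROA). It is not stated whether cultures without OA received albumin, or whether those without BBR received its solvent. Effects of OA and albumin, or of BBR and its solvent, therefore cannot be told apart. No genetic modification was stated for any group, and the methods describe the same isolation and culture for all groups. Each group had 3 libraries of polyadenylated RNA, and because it is not stated whether these came from separate mice or wells, the p-values measure only the spread between labelled libraries. Total counts lay between 15485508 and 23668379 per library, so that 3 counts corresponded to 0.127 to 0.194 CPM (counts scaled to the library size), a limit that covers counting error only.

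The 6 hepatocyte markers found in the tables summed to 35326 to 37107 CPM in the libraries without OA and to 41415 to 44893 CPM in those with OA. Markers of other liver cells were present at far lower summed levels, at 106.7 to 188.7 CPM for 12 Kupffer cell or macrophage markers, 66.4 to 88.7 CPM for 10 endothelial markers and 23.2 to 30.2 CPM for 8 stellate cell markers. The 6 cholangiocyte markers summed to 198.7 to 722.5 CPM, with Krt7 and Cftr at no more than 3 counts in any library. In such bulk samples, a change in the number of cells of a type and a change in RNA per cell cannot be told apart.

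The promoters of Cd36 and Fabp1 are shown because they hold a near match to the direct repeat that PPAR and its partner RXR are known to bind. RefSeq promoters (build GRCm38.p6, 250 bases before to 50 after the start) were at hand for 8 of the 10 genes, and 9 such windows were searched on both strands for AGGTCANAGGTCA with no more than 2 mismatches in its 12 fixed bases. Only these 2 of the 9 windows held a match, against 3.86% of all 32851 promoters searched. Among the 5 genes that rose with BBR alone, these 2 hold a match, Acsl1 and Acsl3 hold none, and Fabp4 was not searched. Of the genes not called with BBR alone, Slc27a2, Fabp2, Acsl4 and Acsl5 hold none, and Fabp5 was not searched. Genes and motif were chosen with earlier results of these data known, so these counts are no test of a link between match and response. Each stretch is written 5′ to 3′ on the strand of the gene, and the capitals mark the match, which reads on the opposite strand.
Cd36, chr5:17835945-17836059, minus strand: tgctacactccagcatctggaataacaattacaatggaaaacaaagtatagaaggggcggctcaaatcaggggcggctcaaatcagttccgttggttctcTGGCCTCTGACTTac
Fabp1, chr6:71199712-71199826, plus strand: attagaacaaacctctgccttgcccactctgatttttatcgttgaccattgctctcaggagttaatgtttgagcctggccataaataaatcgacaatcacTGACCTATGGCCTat
The Cd36 match had 2 mismatches and lay at positions -63 to -51 from the RefSeq start, and the Fabp1 match had 1 mismatch and lay at -67 to -55. That Cd36 start lies inside the GENCODE span of the gene, whose 5′ end is at 17888801. No other Cd36 start was searched. A match is a description of letters and was not tested as a binding site.

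By transcript level per length, Acsl5 was the leading gene of the set in control hepatocytes, at 250.5 ± 15.1 FPKM (fragments scaled by transcript length and depth, as deposited; SD, n = 3). Fabp5 followed at 161.0 ± 2.8 FPKM and Fabp1 at 61.3 ± 4.9 FPKM. Acsl4 stood at 24.6 ± 1.1 FPKM, Fabp4 at 18.01 ± 0.54 FPKM, Acsl1 at 14.3 ± 0.5 FPKM and Slc27a2 at 13.95 ± 0.93 FPKM, and the last 2 overlapped between libraries. Acsl3 (9.997 ± 0.146 FPKM) was lower, and Fabp2 (2.42 ± 0.57 FPKM) and Cd36 (1.77 ± 0.26 FPKM) were the lowest and overlapped each other.

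**Figure D1:**
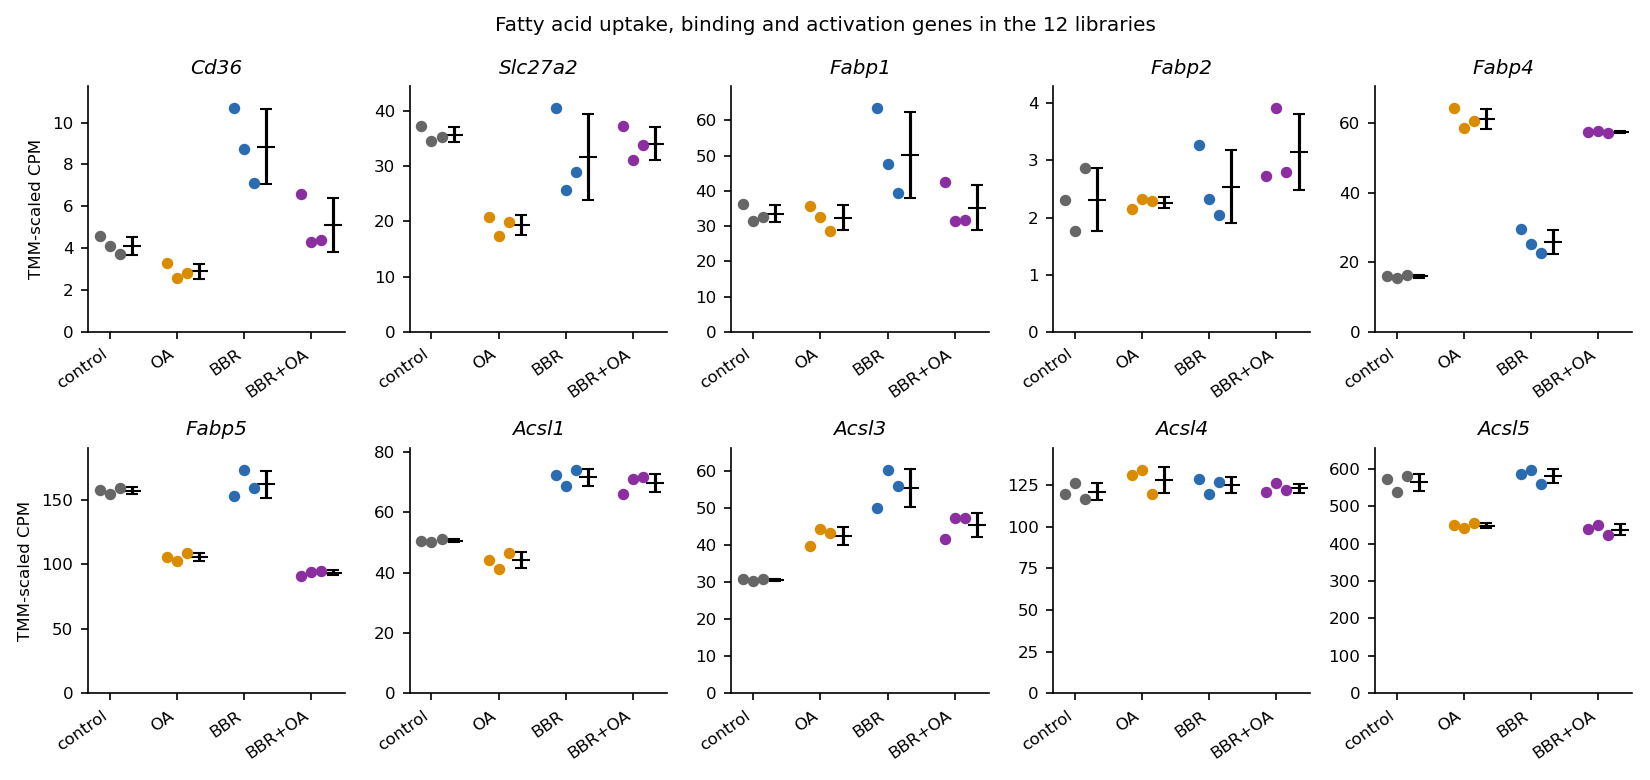
TMM-scaled CPM of the 10 genes in the 12 libraries, 1 panel per gene with its own linear axis from 0. Points are libraries in replicate order, and the bar beside them is the mean with SD over 3 libraries. Cd36 is highest with BBR alone, Acsl1 in both groups with BBR and Fabp4 in both groups with OA.

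BBR without OA raised 5 of the 10 genes and lowered none, at an adjusted p under 0.05 in edgeR. None of the 10 was lower at an unadjusted p under 0.05 either, nor in DESeq2. Over all 12555 genes tested in this comparison, 27.7% were called, 13.2% as higher and 14.5% as lower. The median log2 fold change was 0.33 over the 10 genes and -0.00085 over all genes tested. In the presence of OA, BBR raised 3 of the 10 and lowered 1, where 4.59% of 12278 genes tested were called, 1.95% as higher and 2.63% as lower. OA itself changed more of the set, with 2 raised and 5 lowered against control (42.8% of 12418 genes called, 21.3% higher and 21.5% lower) and 1 raised and 5 lowered against BBR alone (38.9% of 12416 genes called, 20.1% higher and 18.8% lower). Comparisons with a group in common share its libraries and are not independent of each other.

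**Figure D2:**
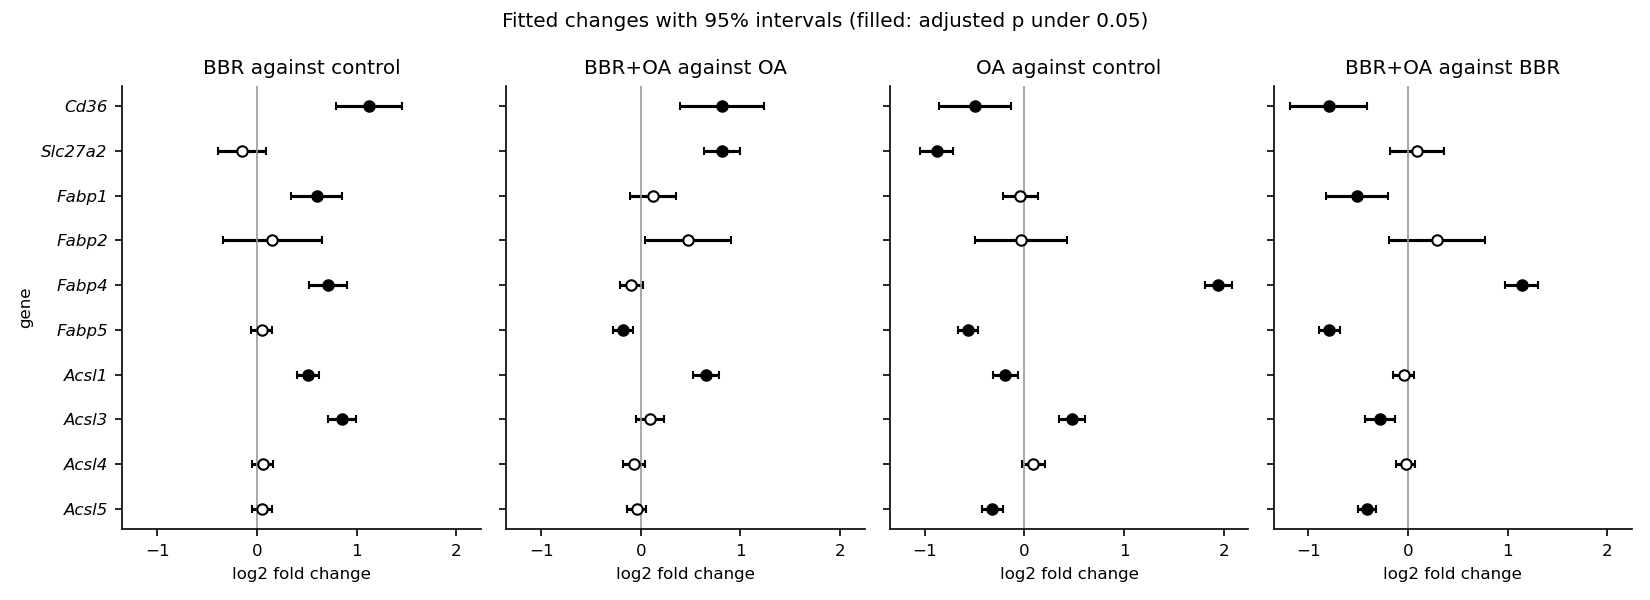
Log2 fold changes of the 10 genes in the 4 comparisons, with 95% intervals from edgeR; filled points have an adjusted p under 0.05. Cd36 and Acsl1 lie to the right of 0 in both BBR comparisons, and Fabp4 lies far to the right in both OA comparisons.

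Cd36 (chr5:17781690-17888801, minus strand, GENCODE on GRCm38), the scavenger receptor that takes up long-chain fatty acids, was the member with the largest rise under BBR alone. Its CPM, with library sizes scaled by TMM (trimmed mean of M values), was 4.57, 4.11 and 3.71 in control libraries and 10.7, 8.76 and 7.10 in BBR libraries. Every BBR library was above every control library, though the BBR libraries spread widely. The log2 fold change was 1.12 (SE 0.16, adjusted p = 5.24e-05), a 2.17-fold rise.

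With OA alone Cd36 stood at 3.28, 2.60 and 2.81 CPM, and with BBR+OA at 6.58, 4.28 and 4.41 CPM. Groups did not overlap in either comparison that involves OA alone, and both differences were close to the threshold. BBR+OA against OA gave 0.82 (SE 0.20, adjusted p = 0.0299) and OA against control gave -0.50 (SE 0.17, adjusted p = 0.0275). Against BBR alone, BBR+OA was lower, with a value of -0.80 (SE 0.18, adjusted p = 0.00306). The BBR effect with OA differed from that without OA by -0.29 (95% interval -0.85 to 0.27, adjusted p = 0.551), so a difference was not detected. That value ran from -0.55 to -0.12 on leaving out 1 library, never called.

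The deposited FPKM of Cd36 gave smaller differences in both comparisons with OA alone. The transcript length implied by count and FPKM lay at 1487 to 2067 bases in OA libraries and at 2751 to 2856 bases in BBR+OA libraries, against 2319 to 2479 in control and 2346 to 2756 in BBR libraries, where GENCODE annotates 6 Cd36 transcripts. In FPKM the OA libraries had 1.58, 1.74 and 1.45 and the BBR+OA libraries 2.30, 1.52 and 1.59, and the groups overlapped. On log2(FPKM + 0.1) in limma, an alternative chosen after seeing the data, BBR+OA against OA was 0.15 (adjusted p = 0.717) and OA against control was -0.14 (adjusted p = 0.499). The interaction was larger on that scale, at -0.77, and was not called (adjusted p = 0.109). The rise under BBR alone stayed called on that scale as in each of the other 6 alternatives, at 0.93 to 1.12. Cd36 rested on 48 to 232 counts per library, and the cause of the length difference was not tested.

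Its call in BBR+OA against OA also ended when 1 library was left out, for OA replicate 2 (0.75, adjusted p = 0.119), for OA replicate 3 (0.80, adjusted p = 0.0589), for the first BBR+OA replicate (0.58, adjusted p = 0.122) and for BBR+OA replicate 3 (0.91, adjusted p = 0.0547). The call in OA against control ended without control replicate 1 or 2 or OA replicate 2 or 3, at adjusted p between 0.0627 and 0.0972.

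**Figure D3:**
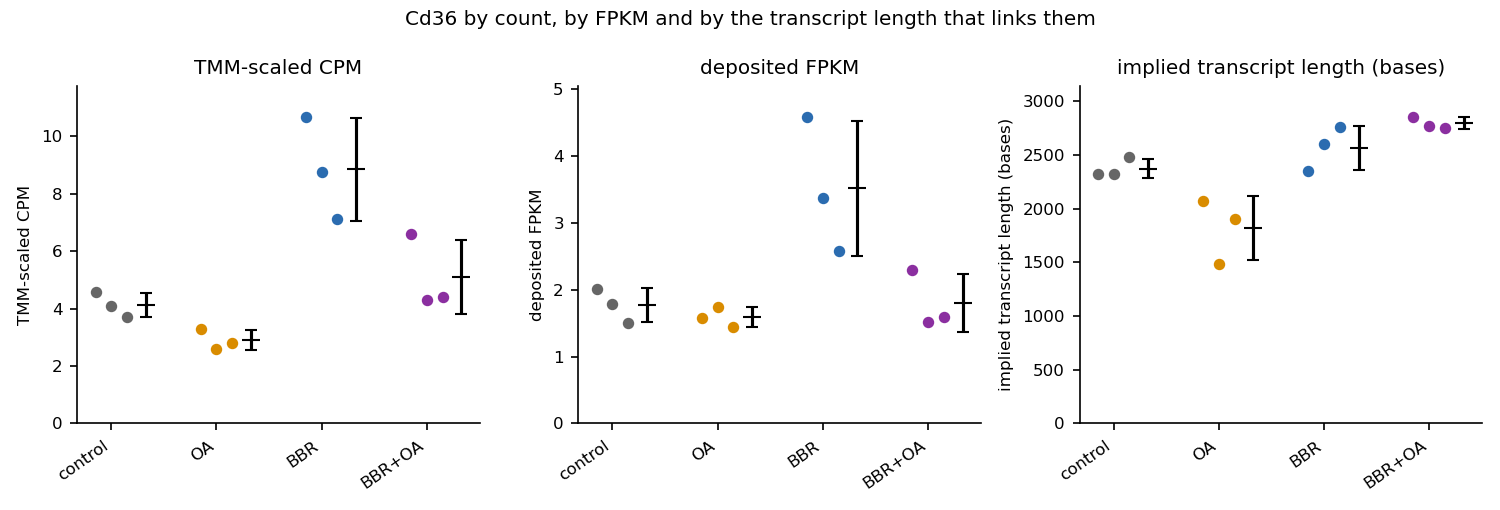
Cd36 in the 12 libraries as TMM-scaled CPM (left), as deposited FPKM (middle) and as the transcript length in bases that links them (right), with mean and SD over 3 libraries. The OA and BBR+OA groups are apart by CPM and overlap by FPKM, and their implied lengths are 1487 to 2067 and 2751 to 2856 bases.

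Slc27a2 (chr2:126552407-126588243, plus strand), the transport protein FATP2 that also has very-long-chain acyl-CoA synthetase activity, fell with OA, and was higher with BBR+OA than with OA. Control libraries had 37.2, 34.6 and 35.3 CPM and OA libraries 20.7, 17.3 and 19.9 CPM, while BBR+OA libraries had 37.3, 31.2 and 33.8 CPM. OA libraries were below all libraries of the other 3 groups. OA against control gave -0.88 on the log2 scale (SE 0.08, adjusted p = 5.68e-07), and BBR+OA against OA gave 0.82 (SE 0.09, adjusted p = 5.85e-05).

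Without OA, BBR libraries held 40.5, 25.6 and 29.0 Slc27a2 CPM, the first of them above every control library and the others below. BBR against control was -0.15 (95% interval -0.39 to 0.09), and without BBR replicate 1 it was -0.37 (adjusted p = 0.0016). Likewise BBR+OA against BBR was 0.09 (95% interval -0.18 to 0.36) and 0.32 without that library (adjusted p = 0.0108). The effect of BBR with OA exceeded that without by 0.98 (SE 0.17, adjusted p = 0.000822), the only positive difference among the 4 members called for the interaction of BBR and OA (12.2% of 12742 genes called, 6.87% positive and 5.31% negative). It held in each of the 12 leave-one-out fits, at 0.85 to 1.21.

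Among the binding proteins, Fabp4 (chr3:10204088-10208576, minus strand), which is typical of adipocytes and macrophages, responded most to OA. Control libraries had 16.2, 15.4 and 16.3 CPM and OA libraries 64.2, 58.7 and 60.7 CPM, with no overlap. OA against control was 1.95 (SE 0.06, adjusted p = 4.93e-11), a 3.86-fold rise and the largest change of any member in any comparison.

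BBR alone also raised Fabp4, to 29.6, 25.4 and 22.8 CPM, all above control (0.71, SE 0.09, adjusted p = 1.99e-05). BBR+OA libraries stood at 57.3, 57.8 and 57.1 CPM, just below every OA library. The difference from OA was -0.10 (95% interval -0.21 to 0.02, adjusted p = 0.360), and that from BBR was 1.14 (SE 0.08, adjusted p = 5.18e-08). The effect of BBR with OA differed from that without by -0.80 (SE 0.10, adjusted p = 7.98e-05).

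Of 5 adipocyte markers, Lep and Retn were at 0 and Adipoq and Plin1 at no more than 3 counts in every library, and the list summed to 0.108 to 0.396 CPM. The 12 Kupffer cell or macrophage markers summed to 106.7 to 123.0 CPM in control, 117 to 129 CPM in OA, 146 to 189 CPM in BBR and 122.9 to 129.2 CPM in BBR+OA libraries. Of the 11 tested in OA against control, where 42.8% of all genes were called, Adgre1, Marco and Lyz2 rose. The 6 that fell were C1qa, C1qb, C1qc, Cd5l, Clec4f and Vsig4. With BBR alone Cd68, which made up most of the macrophage list's sum, rose from 80.1 ± 11.6 to 131.4 ± 22.7 CPM (0.71). Cd5l fell (-0.68) and the other 9 tested were not called, so the higher sum with BBR mainly reflects Cd68. In the same comparison 3 of 10 endothelial markers, Pecam1, Cdh5 and Kdr, rose. The share of all genes called there was 27.7%, with 13.2% called higher.

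Of the 4 cholangiocyte markers tested, Sox9 (0.61), Krt19 (0.68) and Epcam (0.92) rose with BBR alone and Spp1 fell (-0.83). Spp1 was the bulk of that list's sum and fell with OA from 613.4 ± 64.1 to 203.8 ± 18.1 CPM (-1.58), while Sox9 rose (0.60). The list summed to 590.0 to 722.5 CPM in control, 242.2 to 272.3 CPM in OA, 391.0 to 421.6 CPM in BBR and 198.7 to 240.2 CPM in BBR+OA libraries. Of the stellate cell markers, Acta2 fell with BBR alone (-0.97), and with OA Col1a1 fell (-0.85) and Reln rose (0.32). Among the 6 hepatocyte markers, Fgb (-0.81), Apob (-0.20) and Ahsg (-0.18) fell with BBR alone and Ttr rose (0.18). OA against control raised 5 of these 6, most of all Apoa1 (0.89), and lowered Fgb (-0.25). These marker counts stand beside shares of all genes called of 42.8% with OA (21.3% higher) and 27.7% with BBR alone (13.2% higher). The part of any of these cells in the values of the 10 genes was not tested.

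Fabp5 (chr3:10012548-10016607, plus strand), an epidermal-type binding protein, took the opposite course with OA. It stood at 158, 154 and 159 CPM in control, 105, 102 and 108 CPM in OA, 153, 173 and 159 CPM in BBR and 91.2, 93.9 and 94.97 CPM in BBR+OA libraries. Both groups with OA lay below both groups without it. OA lowered it by -0.57 (SE 0.05, adjusted p = 4.17e-07) against control and by -0.79 (SE 0.05, adjusted p = 2.41e-08) against BBR alone. BBR alone gave 0.05 (95% interval -0.06 to 0.15). BBR+OA against OA was called lower at -0.18 (SE 0.05, adjusted p = 0.0472), and the call ended on leaving out any one of the 6 libraries (adjusted p 0.0782 to 0.151). The interaction of -0.22 (SE 0.07, adjusted p = 0.0429) was kept in 3 of 12 leave-one-out fits, those that left out the second OA, the first BBR or the third BBR+OA library, and was lost in limma on FPKM (-0.20, adjusted p = 0.0575).

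Fabp1 (chr6:71199827-71205023, plus strand), the liver binding protein, rose with BBR alone. Control libraries had 36.2, 31.6 and 32.7 CPM and BBR libraries 63.4, 47.7 and 39.4 CPM, all above control and spread more widely than the control libraries. The log2 fold change was 0.60 (SE 0.12, adjusted p = 0.00139), and 0.38 without BBR replicate 1, still called. OA libraries (35.8, 32.6 and 28.8 CPM) overlapped control ones, with a difference of -0.04 (95% interval -0.22 to 0.13), and BBR+OA libraries (42.6, 31.6 and 31.8 CPM) overlapped OA ones, with 0.13 (95% interval -0.11 to 0.36). BBR+OA against BBR was -0.51 (SE 0.14, adjusted p = 0.0117) although the groups overlapped, and the call ended without BBR replicate 1 (-0.29, adjusted p = 0.0623), without the second (-0.43, adjusted p = 0.0578) or the third BBR+OA library (-0.44, adjusted p = 0.0573) and in DESeq2 (adjusted p = 0.126). The interaction of BBR and OA was -0.46 (95% interval -0.87 to -0.05, adjusted p = 0.140).

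Fabp2 (chr3:122895072-122899506, plus strand), the intestinal binding protein, was sparse in these cells, with 36 to 74 counts per library, and was called in none of the comparisons. Its levels were 2.31, 1.77 and 2.86 CPM in control, 2.15, 2.33 and 2.30 CPM in OA, 3.27, 2.32 and 2.05 CPM in BBR and 2.73, 3.91 and 2.80 CPM in BBR+OA libraries. BBR+OA libraries were all above OA libraries, with a log2 fold change of 0.48 (95% interval 0.05 to 0.91, adjusted p = 0.211).

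Together, the 4 binding proteins summed to 242.7 ± 8.1 FPKM in control and 233.9 ± 9.0 FPKM in OA libraries, a similar sum with another make-up. Fabp5 took 66.3 ± 1.2% of it in control and 45.3 ± 2.0% with OA, while Fabp4 took 7.42 ± 0.09% and 28.95 ± 0.45%. Sums were 287.4 ± 24.7 FPKM with BBR and 223.9 ± 10.3 FPKM with BBR+OA, with Fabp4 at 10.1 ± 0.6% and 28.4 ± 1.2%.

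**Figure D4:**
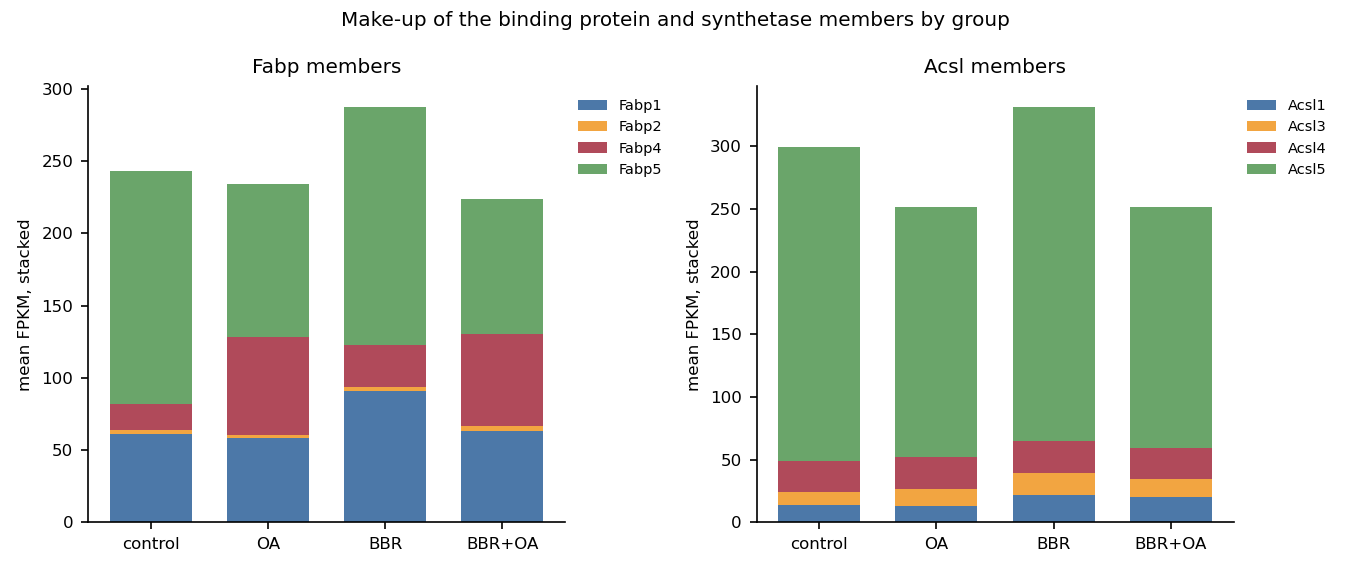
Mean deposited FPKM over 3 libraries per group, stacked over the 4 binding proteins (left) and the 4 long-chain synthetases (right), on linear axes from 0. Fabp4 widens and Fabp5 narrows in both groups with OA, and Acsl5 is the bulk of every synthetase bar.

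Acsl1 (chr8:46471037-46536051, plus strand), a major long-chain synthetase of liver, rose with BBR whether or not OA was present. Control libraries had 50.4, 50.2 and 51.1 CPM, BBR libraries 72.4, 68.6 and 74.1 CPM, OA libraries 44.3, 41.3 and 46.6 CPM, and BBR+OA libraries 66.2, 71.1 and 71.7 CPM. All 6 libraries with BBR were above all 6 without it. BBR against control was 0.51 (SE 0.05, adjusted p = 1.66e-06) and BBR+OA against OA was 0.66 (SE 0.06, adjusted p = 1.91e-05), and both held in every alternative. The difference between these effects was 0.15 (95% interval -0.0045 to 0.31, adjusted p = 0.211). OA lowered Acsl1 slightly against control, by -0.19 (SE 0.06, adjusted p = 0.0177), a call lost without control replicate 3 (-0.18, adjusted p = 0.0539) or OA replicate 2 (-0.14, adjusted p = 0.0935) and in DESeq2 and limma on FPKM. BBR+OA against BBR gave -0.04 (95% interval -0.15 to 0.06).

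Acsl3 (chr1:78657825-78707743, plus strand), which is found on the endoplasmic reticulum and lipid droplets, rose with either agent alone. It stood at 30.8, 30.3 and 30.9 CPM in control, 49.9, 60.3 and 56.02 CPM in BBR, 39.9, 44.4 and 43.2 CPM in OA and 41.7, 47.2 and 47.4 CPM in BBR+OA libraries. The 3 control libraries were the lowest and the 3 BBR libraries the highest, and the groups with OA overlapped between them. BBR gave 0.86 (SE 0.07, adjusted p = 1.48e-07) and OA 0.48 (SE 0.06, adjusted p = 2.39e-05) against control. With OA present BBR gave 0.09 (95% interval -0.05 to 0.23), and BBR+OA was lower than BBR by -0.28 (SE 0.07, adjusted p = 0.0059). The interaction was -0.76 (SE 0.10, adjusted p = 7.97e-05) and was called in each of the alternatives.

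Acsl5 (chr19:55251938-55297720, plus strand), the most abundant synthetase here, moved with OA. Control libraries had 572, 537 and 582 CPM, OA libraries 450, 441 and 454 CPM, BBR libraries 585, 597 and 560 CPM and BBR+OA libraries 438, 451 and 423 CPM. Both groups with OA lay below both without. OA lowered Acsl5 by -0.32 (SE 0.05, adjusted p = 0.000129) against control and by -0.41 (SE 0.04, adjusted p = 4.08e-06) against BBR. BBR gave 0.05 (95% interval -0.05 to 0.15) without OA and -0.04 (95% interval -0.14 to 0.06) with it.

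Acsl4 (chrX:142317993-142390535, minus strand), which prefers arachidonic acid, was called in none of the comparisons. Its libraries ran from 116 to 126 CPM in control, 119 to 134 CPM in OA, 119 to 129 CPM in BBR and 121 to 126 CPM in BBR+OA, so that all groups overlapped. The 95% intervals bounded BBR against control at -0.05 to 0.16, BBR+OA against OA at -0.17 to 0.05 and BBR+OA against BBR at -0.12 to 0.07. OA against control was 0.09 (95% interval -0.03 to 0.21), which was called without OA replicate 3 (0.14, adjusted p = 0.0373).

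Acsl5 made up 83.7 ± 1.2% of the summed FPKM of the 4 synthetases in control, 79.4 ± 0.6% with OA, 80.4 ± 0.9% with BBR and 76.4 ± 1.6% with BBR+OA. Acsl1 took 4.78 ± 0.35%, 5.05 ± 0.25%, 6.58 ± 0.54% and 8.15 ± 0.96% in the same order, so its share was highest with both agents. The summed FPKM was 299.3 ± 14.1 in control, 251.3 ± 6.8 with OA, 331.4 ± 5.3 with BBR and 251.5 ± 8.6 with BBR+OA.

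Other genes of the same route were taken from 4 lists. Over all genes tested the median log2 fold change lay between -0.0061 and -0.00031 in the 4 comparisons. The share of all genes called was 27.7% in BBR against control and 4.59% in BBR+OA against OA. It was 42.8% in OA against control and 38.9% in BBR+OA against BBR, and the list counts below are to be read beside these shares. Of 6 further uptake genes tested of 7 listed (medians 0.10, 0.06, 0.03 and 0.0029, in the order BBR against control, BBR+OA against OA, OA against control and BBR+OA against BBR), BBR raised Slc27a4, the transport protein FATP4, both without OA (80.8 ± 5.0 to 99.2 ± 1.6 CPM, log2 fold change 0.31, adjusted p = 0.000305) and with it (0.26, adjusted p = 0.00547). BBR lowered Cav1, the coat protein of caveolae, without OA (-0.72, adjusted p = 0.0128), and lowered Slc27a1, the transport protein FATP1, with OA (-0.48, adjusted p = 0.0232). OA raised Slc27a4 (0.15, adjusted p = 0.0308) and lowered Cav1 (-0.96, adjusted p = 0.00167) and Slc27a1 (25.4 ± 1.7 to 15.8 ± 2.3 CPM, -0.67, adjusted p = 7.1e-05). BBR+OA against BBR raised Got2 (0.22) and Slc27a4 (0.11, adjusted p = 0.0489) and lowered Slc27a1 (-1.25) and Cav1 (-1.09). The fall of Cav1 with BBR alone was not called in DESeq2 (adjusted p = 0.0613) or limma on FPKM (adjusted p = 0.205), nor was Slc27a4 in BBR+OA against BBR (adjusted p = 0.119 and 0.141). Slc27a1 in BBR+OA against OA (adjusted p = 0.171) and Slc27a4 in OA against control (adjusted p = 0.165) were lost in limma on FPKM. The former was also lost in 5 of 6 leave-one-out fits, and the latter in 4 of 6 and under upper quartile scaling.

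Among the 6 further binding proteins tested of 13 listed, Dbi, the acyl-CoA binding protein, was higher in all 4 comparisons. The list's medians were 0.0045, 0.18, 0.09 and 0.07 in the same order. The level of Dbi was 209.5 ± 13.3 CPM in control, 249.9 ± 15.2 CPM with OA, 239.0 ± 6.6 CPM with BBR and 291.4 ± 7.6 CPM with BBR+OA. Scp2, the sterol carrier protein, fell with OA (414.4 ± 36.1 to 257.1 ± 22.0 CPM, -0.68, adjusted p = 3.21e-06) and was higher in BBR+OA than in OA (0.22, adjusted p = 0.0491). Acbd4 fell with BBR (-0.30, adjusted p = 0.0334) and Acbd5 with OA (-0.36, adjusted p = 4.51e-05), while Acbd3 rose with OA (0.20, adjusted p = 0.00484). Against BBR alone, BBR+OA raised Acbd4 (0.70), Dbi (0.29) and Acbd3 (0.16) and lowered Scp2 (-0.32). Acbd4 with BBR alone (adjusted p = 0.107 and 0.118) and Acbd3 in BBR+OA against BBR (adjusted p = 0.0665 and 0.126) were not called in DESeq2 or limma on FPKM. Dbi in BBR+OA against OA was not called in the latter (adjusted p = 0.0582) and lost its call in 5 of 6 leave-one-out fits. Scp2 in that comparison lost its call under upper quartile scaling and in 4 of 6 leave-one-out fits.

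Of 8 further acyl-CoA synthetases tested of 14 listed, BBR raised 1 and lowered 4, and the list's medians were -0.23, 0.16, -0.55 and 0.01 in the same order. The one that rose was Acsbg1 (5.01 ± 0.80 to 8.96 ± 1.84 CPM, 0.83, adjusted p = 0.000979), and the largest falls were in the medium-chain synthetases Acsm5 (-1.19), Acsm3 (-0.90) and Acsm1 (-0.60). In OA against control 6 of the 8 fell, with Acsm3 (-1.20), Acsm5 (-1.02) and Acsf2 (-0.63) the largest. None rose by edgeR, at an unadjusted p under 0.05 or in DESeq2. Over all genes 21.5% were called lower and 21.3% higher in that comparison. With OA present BBR lowered 1, Aacs (-0.25, adjusted p = 0.0188). BBR+OA against BBR lowered Acsbg1 (-1.89), Acss2 (-0.49) and Acsf2 (-0.27). In limma on FPKM the calls ended for Acsm1 with BBR alone (adjusted p = 0.0514), Acsm5 with OA (adjusted p = 0.0556) and Aacs in BBR+OA against OA (adjusted p = 0.0683).

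The list of 15 nuclear receptors, coactivators and liver factors showed 6 falls with BBR alone, where 14.5% of all genes were called lower. Among them were Ppargc1b (-0.95) and Nr1i2 (-0.71), and no rise was called (1 at an unadjusted p under 0.05, 0 in DESeq2). Its medians in the same order were -0.11, -0.07, -0.10 and 0.09. In BBR+OA against OA none of the 15 was called by edgeR, with 3 at an unadjusted p under 0.05 and 0 called in DESeq2. Over all genes 4.59% were called there, a share too low for 0 of 15 to be read as a result about these genes. OA against control raised Ppara (5.09 ± 0.48 to 7.81 ± 0.15 CPM, 0.62, adjusted p = 0.000871) and Ahr (0.21), among 3 raised, and lowered 5, with the largest in Ppargc1a (-0.92), Nr1i2 (-0.75) and Pparg (12.8 ± 0.8 to 8.26 ± 0.42 CPM, -0.62, adjusted p = 0.000129). BBR+OA against BBR raised 4, among them Ppargc1b (0.73) and Ppara (0.43), and lowered Pparg (-0.94), Ppargc1a (-0.84) and Nr1h2 (-0.26). In that comparison Ppara (adjusted p = 0.0882) and Ppargc1b (adjusted p = 0.169) were not called in DESeq2 or under upper quartile scaling. Ppara also lost its call in 4 of 6 leave-one-out fits and in limma on FPKM (adjusted p = 0.0833). Ppargc1b lost its call in 5 of 6 leave-one-out fits and with no filter. In limma on FPKM the calls also ended for Ppargc1b with BBR alone (adjusted p = 0.0588) and Ahr with OA (adjusted p = 0.133).

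For the interaction of BBR and OA, 1 further uptake gene was negative, Slc27a1 (-0.58), and 3 binding proteins were positive, Acbd4 (0.48), Scp2 (0.37) and Acbd5 (0.27). Among the synthetases Acsm3 (1.45), Acsm5 (1.40) and Acsf2 (0.37) were positive and Acsbg1 (-1.37) negative. Of the regulators 6 were positive, among them Nr1i2 (0.73) and Cebpa (0.41), and none was called negative by edgeR (1 at an unadjusted p under 0.05, 0 in DESeq2). Over all genes 6.87% were called positive and 5.31% negative. Acbd4 was not called in DESeq2 (adjusted p = 0.0677), and Acbd4, Acsm5 and Slc27a1 were not called in limma on FPKM (adjusted p 0.0783 to 0.198). Acbd4 and Acbd5 each lost the call in 9 of 12 leave-one-out fits, Acsf2 in 6 and Scp2 in 1. Of all 73 calls in the 4 lists, interaction included, 45 were kept under every alternative fitted and every leave-one-out fit.

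The genes whose log2 CPM followed Cd36 most closely over the 12 libraries, among 9714 genes ranked, were Nck2 (r = 0.94), Tmx4, Trove2, Pex11a and Nceh1, all at 0.93 to 0.94. For Fabp1 they were Igfbp2 (r = 0.95), Serpina1a, C9, Serpina1c and Cyp3a25 (0.89), and for Acsl1 they were Ehhadh (r = 0.97), Hsdl2, Cpt2, Hadhb and Hist1h2bc (0.95). The 12 points fall into 4 treatment groups and share their depth, so these are descriptions of a common pattern over groups.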

How the data were processed

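RNA of cultured primary hepatocytes was sequenced in 12 libraries, 3 per group, with groups taken from the labels and culture conditions from the study's methods. The authors deposited an estimated count and an FPKM value per gene for each library; the submitters' processing notes name mm10, and the aligner and counting program are not given in the sources used here, nor is strand use. Deposited counts were fractional for 2862 features and 2 of the 120 values of the 10 genes, and were rounded. Pairs of groups were compared in fits of 6 libraries, and the interaction in a fit of all 12, in edgeR 4.0.16 (R 4.3.3) with filterByExpr (minimum count 10), TMM scaling, the two-sided quasi-likelihood F test and Benjamini-Hochberg adjustment over all genes tested, called at 0.05. SE was derived from the F statistic. CPM values are scaled by TMM over all 12 libraries. All 10 genes passed the filter in every comparison.

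All 10 genes were reported in every comparison, together with up to 3 called genes of largest rise and 3 of largest fall from each of 4 lists; 1 listed gene that this rule selected is not reported here. The 5 genes of highest Pearson r were named for Cd36, Fabp1 and Acsl1, among genes with a mean of at least 5 CPM. The genes and lists were chosen with earlier results of these data known, and the motif was chosen likewise. Coordinates are GRCm38, sequences RefSeq. Alternatives were RLE and upper quartile scaling, no filter, DESeq2 1.42.0, a replicate block, a fit on all 12 libraries, leaving out each library, and, added after seeing the data, limma 3.58.1 on log2(FPKM + 0.1) for genes with a mean of at least 0.5 FPKM in a group. The fit was tested on simulated data. The labels give no batch.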

Additional observations from a re-analysis of the deposited data

Results flagged for a closer look

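The effect of BBR differed between cultures with and without OA for 4 of the 10 genes, by the interaction term of edgeR on all 12 libraries. Among all 12742 genes tested for this term, 12.2% were called, 6.87% positive and 5.31% negative. The difference was positive for Slc27a2, at 0.98 on the log2 scale. It was negative for Fabp4, at -0.80, for Acsl3, at -0.76, and for Fabp5, at -0.22. The Fabp5 value was called in 3 of the 12 fits that left out 1 library and not in limma on FPKM, and the other 3 genes were called in all 12 and in limma on FPKM.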

How the results depend on the processing

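Over 700 values of the 10 genes under the alternatives, 645 kept their direction and their side of the threshold, 39 lost a call, 8 gained one and 8 changed sign, none of the last being called. Of the 10 genes, the number called lower in BBR+OA against OA went from 1 to 0 under upper quartile scaling, DESeq2 and limma on FPKM, and to 0 in every leave-one-out fit. The number called lower in OA against control went from 5 to 3 in DESeq2 and limma on FPKM, and ran from 3 to 5 in leave-one-out fits. In those fits the number called lower in BBR against control ran from 0 to 1 and the number called higher in BBR+OA against BBR from 1 to 2, both extremes without BBR replicate 1. The cause of these changes was not tested.

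Sign changes came only from leaving out 1 library. In BBR against control, Fabp2 ran from -0.088 (without BBR replicate 1) to 0.35, also crossing 0 without control replicate 2 (-0.0086), and Fabp5 from -0.0014 (without BBR replicate 2) to 0.091. In BBR+OA against OA, Fabp1 ran from -0.036 (without BBR+OA replicate 1) to 0.20. In OA against control, Fabp1 ran from -0.12 to 0.039 (without OA replicate 3; 0.018 without control replicate 1) and Fabp2 from -0.20 to 0.16 (without control replicate 3). In BBR+OA against BBR, Slc27a2 ran from -0.035 (without BBR replicate 2) to 0.32. Cd36 in OA against control also lost its call in DESeq2 (adjusted p = 0.095) and in the fit on all 12 libraries (adjusted p = 0.0509). The interaction of Fabp5 lost its call in limma on FPKM. The interaction of Fabp1 gained a call with no filter (adjusted p = 0.0332) and without BBR replicate 3 or BBR+OA replicate 1.

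Same-numbered libraries deviated together only weakly, with correlations of 0.023 to 0.156. In 23 of 24 cases a library correlated best with its own number, a hint from the data and not from the design. The 24 cases are the 6 libraries in each of 4 comparisons, so each of the 12 libraries enters more than once. With the replicate block, Acsl4 in OA against control gained a call (0.09, adjusted p = 0.0431), as did the interaction of Fabp1 (-0.45, adjusted p = 0.00423), and no other call among the 10 genes changed. Over all genes the block gave more calls. In BBR+OA against OA they went from 240 higher and 323 lower to 578 and 755. In BBR against control they went from 1661 higher and 1823 lower to 2008 and 2145. The shares over all genes given above thus depend on leaving the replicate number out of the fit. Low counts limit Cd36 and Fabp2 most. Of the 73 calls in the 4 lists of other genes, 9 were lost in DESeq2, 21 in limma on FPKM and 24 in at least 1 leave-one-out fit.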
